A study of Arabidopsis thaliana with 8 samples.

Results

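The expression of all genes was compared between 2 mutants of the plant SAGA complex, the double mutant scs1-/- scs2a-/- and the single mutant hag1-/-, in whole Arabidopsis thaliana seedlings. Members of the comparison were the genes with a normalised count of 10 or more in at least 2 of the 4 libraries of these genotypes, which gave 21679 of the 32548 genes in the table. Seedlings of both mutants, of ada2b-/- and of wild type Col-0 were 12 days old and had grown on medium plates at 22 °C with 16 h of light and 8 h of dark. Each genotype had 2 libraries of total RNA, read as single 50 bp reads. The sources used here give neither the alleles, nor the number of seedlings per library, nor whether both libraries of a genotype were grown separately. P-values therefore reflect the spread between the libraries at hand, and that spread may be technical. Differences are given as scs1 scs2a minus hag1 on the log2(value + 1) scale ± SE, and "higher" and "lower" refer to scs1 scs2a. A gene was called when its adjusted p in limma was under 0.05. Paired values are replicates 1 and 2 in that order.

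SAGA is a coactivator complex of many subunits that is recruited to genes by transcription factors and modifies their chromatin. HAG1, the plant counterpart of yeast Gcn5, is its histone acetyltransferase, which acetylates histone H3 with the adaptor ADA2B, and a separate module of the complex removes ubiquitin from histone H2B. SCS1 and SCS2A are related SAGA subunits described from plants, so that the comparison sets a mutant of the catalytic subunit beside a mutant of non-catalytic ones.

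The libraries held between 20570967 and 22344725 normalised counts each, and the 10 most abundant genes took between 4.51 and 5.59% of a library. HAG1 was examined first, as a check on the labels. It stood at 345 and 345 normalised counts in scs1 scs2a, 131 and 133 in hag1, and 296 and 328 in wild type. Both hag1 libraries lay far below the other genotypes but not near 0, and the difference between the mutants was 1.37 ± 0.09 (limma adjusted p = 5.94e-05). None of the other 14 SAGA subunits listed was called between the mutants. ADA2B, for example, stood at 692 and 711 in scs1 scs2a and 608 and 674 in hag1, a difference of 0.13 ± 0.07 (limma adjusted p = 0.193). In a fit without hag1 replicate 2 and with upper-quartile scaling, each taken alone, 1 further call was made among them. The genes SCS1 and SCS2A themselves are not analysed here.

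Of the 21679 members, all of which were tested, 3730 were higher and 3644 lower in scs1 scs2a. The background over the 25459 genes tested was 15.2% called higher and 14.9% called lower. These shares are also the background for each list count below. With a difference of at least 2-fold, 658 members were higher and 719 lower, against a background of 3.11% and 3.39% of genes tested. At least 4-fold differences were called for 120 members higher and 152 lower, against 184 higher and 217 lower among the 25459 genes tested. The member counts include members that reached 10 in 1 genotype alone. Over the 20644 members with 10 or more in all 4 libraries they were 462 higher and 570 lower at 2-fold. At 4-fold they were 44 higher and 73 lower. The median difference over the members was 0.004, a value that scaling between libraries can set, and with upper-quartile scaling 4277 members were higher and 3131 lower. Libraries of the 2 genotypes did not overlap in 15141 members (69.8%), against 65.9% of all genes tested. Called either way were 30.1% of the genes tested. The counts of members higher and lower were 2042 and 2158 without scs1 scs2a replicate 1, and 2343 and 2351 without scs1 scs2a replicate 2. Without hag1 replicate 2, 2383 were lower. Calls were spread unevenly over expression level. Among the 4692 members with a mean of 1000 normalised counts or more, 748 were higher and 1333 lower, while among the 5467 members with a mean under 100, 736 were higher and 463 lower. Besides those 20644 members, 226 met the rule only through scs1 scs2a and 201 only through hag1, and the other 608 through some but not all libraries of a genotype. A member that met the rule through 1 genotype alone had to differ, so counts over such members are not read as a result, and those among the named genes are pointed out and their values are a description. The member just inside the rule was AT4G03450, at 28.9 and 10.3 in scs1 scs2a and 7.3 and 6.86 in hag1, and the gene just outside was LEA4-5, at 11.6 and 1.81 in scs1 scs2a and 2.15 and 9.84 in hag1.

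**Figure D1:**
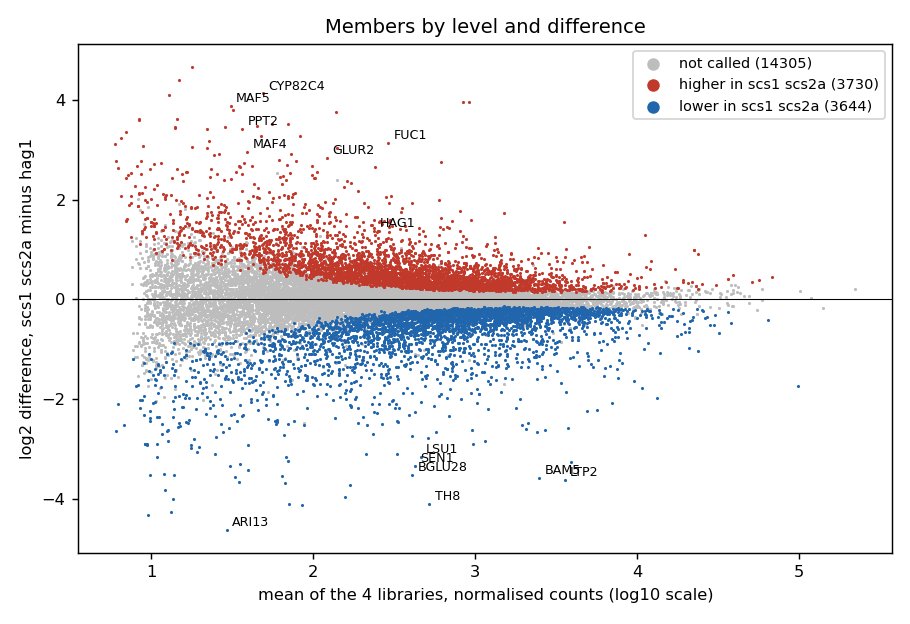
Each point is a member, with its mean over the 4 libraries in normalised counts (log10 scale) on the x axis and the log2 difference, scs1 scs2a minus hag1, on the y axis. The 3730 members called higher are red, the 3644 called lower are blue, and the 14305 not called are grey.

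Wild type libraries took no part in choosing the members and show which mutant lay nearer to the unmutated level. Of the 658 members at least 2-fold higher in scs1 scs2a, the wild type mean was beyond the scs1 scs2a mean in 335 and between the mutants but nearer to scs1 scs2a in 249. It was nearer to hag1 in 59 and beyond hag1 in 15. The 719 members at least 2-fold lower divided in the same order, into 352, 266, 78 and 23. For most of the large differences, then, the hag1 level was the one farther from wild type. By the tests against wild type in the same fit, 419 of the 658 and 457 of the 719 were called in hag1 and not in scs1 scs2a, 34 and 45 in scs1 scs2a and not in hag1, and 115 and 112 in both mutants in the same direction. Over the members with 10 or more in all 4 libraries, wild type was beyond scs1 scs2a or nearer to it in 412 of 462 higher and 499 of 570 lower members, and 290 and 359 were called in hag1 and not in scs1 scs2a. The background of those tests was 44.3% of genes called for hag1 against wild type and 19.9% for scs1 scs2a against wild type. Both tests share the wild type libraries, and a call in 1 mutant and not the other is no test that the mutants differ, which here is the comparison between them.

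**Figure D2:**
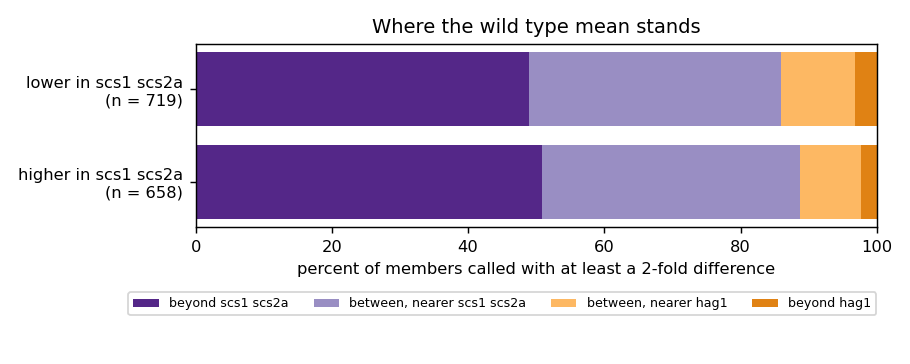
Bars show, in percent, where the wild type mean stood for the 658 members at least 2-fold higher and the 719 at least 2-fold lower in scs1 scs2a. In both bars, wild type beyond scs1 scs2a or between the mutants but nearer to scs1 scs2a makes up most of the members.

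The largest higher differences by the naming rule were in genes of mixed functions. FUC1, an alpha-L-fucosidase that trims fucose from sugar chains, stood at 526 and 521 in scs1 scs2a, 58.4 and 58.8 in hag1, and 538 and 501 in wild type. The pairs were tight and far apart, with a difference of 3.14 ± 0.08 (limma adjusted p = 1.2e-06), the smallest p of any member called higher with a symbol. FUC1 overlaps the loci MIR5021 on the opposite strand and AT2G28105 on the same strand, and since no source used here states whether strand was used in counting, their reads cannot be told apart. PPT2, a translocator that brings phosphoenolpyruvate into plastids, stood at 76.8 and 57.9 in scs1 scs2a, 7.27 and 3.9 in hag1, and 301 and 301 in wild type. Both mutants lay below wild type, and hag1 lay farther below. GLUR2, a glutamate receptor-like channel, stood at 252 and 175 against 23.1 and 35.3, a difference of 2.84 ± 0.23 (limma adjusted p = 0.000142). HCS2, a holocarboxylase synthetase, which attaches biotin to enzymes, stood at 30.7 and 27.6 against 1.04 and 0, and CNGC18, a cyclic nucleotide-gated channel, at 13.3 and 19.1 against 0.00523 and 0.983. For these 2 genes and for the nitrate transporter NRT2.5, at 35.6 and 15 against 0.00523 and 0.983, hag1 held about 1 normalised count at most, so the size of the fitted difference depends on the pseudocount. The gibberellin methyltransferase GAMT2 stood at 11.5 and 10.5 against 2.07 and 0, and its call ended without scs1 scs2a replicate 1 (limma adjusted p = 0.0981), scs1 scs2a replicate 2 (0.0827) or hag1 replicate 2 (0.124). PPT2, HCS2, CNGC18, NRT2.5, GAMT2 and MIR5021 were members through scs1 scs2a alone.

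In a few members with very small p, wild type lay nearer to hag1 than to scs1 scs2a. CSD2, the plastid copper/zinc superoxide dismutase, stood at 1872 and 1843 in scs1 scs2a, 823 and 740 in hag1, and 851 and 837 in wild type. ARP9, an actin-related protein, stood at 945 and 898, 344 and 343, and 407 and 380 in the same order. The ada2b libraries were also above wild type, at 2452 and 2449 for CSD2, where they exceeded scs1 scs2a, and 559 and 564 for ARP9. The differences of scs1 scs2a from hag1 were 1.25 ± 0.06 (limma adjusted p = 2.41e-05) and 1.42 ± 0.07 (limma adjusted p = 2.08e-05). PGL34, a plastoglobulin of plastid lipid droplets, went the usual way, at 628 and 657 in scs1 scs2a, 169 and 165 in hag1, and 713 and 623 in wild type.

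Lower members with the largest differences were mostly genes that stood far above wild type in hag1. TH8, an h-type thioredoxin, stood at 49.7 and 64.9 in scs1 scs2a, 999 and 968 in hag1, and 35.8 and 31 in wild type. LTP2, a lipid transfer protein of the cell surface, stood at 491 and 573, 7740 and 5458, and 871 and 982. The differences were -4.09 ± 0.18 (limma adjusted p = 1.86e-05) for TH8 and -3.61 ± 0.16 (limma adjusted p = 1.84e-05) for LTP2. LSU1, which is named for its induction by low sulphur, stood at 83.2 and 102 against 725 and 933, and BGLU28, a beta-glucosidase, at 46.6 and 88.1 against 666 and 828. For both, wild type lay between the mutants, at 299 and 206 for LSU1 and 126 and 121 for BGLU28. ARI13, a RING protein, was 4.61 lower on the log2 scale, at 1.92 and 0.938 against 55.3 and 58.8, which rests on about 1 to 2 normalised counts in scs1 scs2a. AGO9, an Argonaute protein that carries small RNAs, stood at 5.74 and 5.71 against 62.6 and 67.7, and DXPS1, a gene of the deoxyxylulose phosphate synthase family, at 4.77 and 6.69 against 95.5 and 50.8, with none in either wild type library. CRK4, a receptor-like kinase, the SKP1-like gene SK9 and the purple acid phosphatase PAP23 completed the set, at 20.2 and 7.49, 0 and 2.89, and 0.945 and 1.91 in scs1 scs2a and at 97.3 and 145, 29.1 and 15.6, and 18.8 and 21.6 in hag1. The call of PAP23 ended without scs1 scs2a replicate 1 (limma adjusted p = 0.0844), hag1 replicate 1 (0.0606) or hag1 replicate 2 (0.0729). ARI13, AGO9, DXPS1, SK9 and PAP23 were members through hag1 alone, and CRK4 reached 10 in 1 scs1 scs2a library. By p, ABCG22, an ABC transporter, PR4, a pathogenesis-related protein, and GAT1_2.1, a glutamine amidotransferase-like protein, were also lower, by 1.98 ± 0.06 (limma adjusted p = 3.03e-06), 1.64 ± 0.08 (limma adjusted p = 2.41e-05) and 2.77 ± 0.15 (limma adjusted p = 2.98e-05) on the log2 scale. GAT1_2.1 overlaps AT1G05147 on the opposite strand, which stood at means of 43.5 in scs1 scs2a and 380 in hag1.

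The phosphate starvation genes were lower in scs1 scs2a almost as a block. Of 22 listed genes, all of them members, 19 were lower, 1 was higher and 2 were not called, with a median difference of -1.12, beside a median of 0.004 and a background of 14.9% called lower. When phosphate is scarce, plants replace membrane phospholipids with galactolipids and sulpholipids, secrete phosphatases and raise phosphate transporters, under the transcription factor PHR1, which binds a short site named P1BS, and under SPX proteins that restrain it. Enzymes of lipid replacement were among the lower genes. MGD2, a galactolipid synthase, stood at 419 and 421 in scs1 scs2a, 967 and 1086 in hag1, and 319 and 316 in wild type, a difference of -1.29 ± 0.07 (limma adjusted p = 3.47e-05). SQD2, a sulpholipid synthase, stood at 2751 and 2810, 5399 and 6074, and 3116 and 2775, a difference of -1.04 ± 0.07 (limma adjusted p = 7.64e-05). For both genes hag1 stood above the other 2 genotypes, and scs1 scs2a was called above wild type for MGD2, by 0.4 ± 0.07 (limma adjusted p = 0.00655), and not called for SQD2. PLDP2, a phospholipase D, and SRG3, a glycerophosphodiester phosphodiesterase family gene, stood at 351 and 427 against 1037 and 1049 and at 2739 and 3233 against 7619 and 7619. SRG3 overlaps AT3G02030 on the opposite strand, with means of 1150 and 2750, and PLDP2 overlaps AT3G05640, with means of 61.2 and 79.3, so that part of their counts is uncertain.

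The first 250 bases before the annotated gene start are shown for 4 of these genes, because they hold the P1BS letters and the genes were lower together. The windows were read from the RefSeq TAIR10.1 assembly by locus tag, the strand is that of the gene, and capitals mark each match to GNATATNC on either strand. MGD2 lies at chr5:6896213-6896462 on the plus strand, SPX3 at chr2:18606160-18606409 on the plus strand, SRG3 at chr3:350011-350260 on the minus strand and PS2 at chr1:27466349-27466598 on the minus strand.
MGD2: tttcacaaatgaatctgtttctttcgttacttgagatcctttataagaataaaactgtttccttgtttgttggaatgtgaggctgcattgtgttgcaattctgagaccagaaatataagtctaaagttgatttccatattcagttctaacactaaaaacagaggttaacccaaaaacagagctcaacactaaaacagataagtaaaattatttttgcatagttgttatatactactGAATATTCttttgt
SPX3: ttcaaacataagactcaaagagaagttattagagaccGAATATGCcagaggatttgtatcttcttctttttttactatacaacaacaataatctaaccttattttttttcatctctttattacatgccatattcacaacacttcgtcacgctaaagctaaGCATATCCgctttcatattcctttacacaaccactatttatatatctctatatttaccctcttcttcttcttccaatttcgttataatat
SRG3: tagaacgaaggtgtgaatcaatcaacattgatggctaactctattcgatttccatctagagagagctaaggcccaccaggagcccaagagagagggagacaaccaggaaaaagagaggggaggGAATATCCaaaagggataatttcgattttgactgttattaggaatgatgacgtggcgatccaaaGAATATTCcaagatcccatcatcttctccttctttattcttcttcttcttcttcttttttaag
PS2: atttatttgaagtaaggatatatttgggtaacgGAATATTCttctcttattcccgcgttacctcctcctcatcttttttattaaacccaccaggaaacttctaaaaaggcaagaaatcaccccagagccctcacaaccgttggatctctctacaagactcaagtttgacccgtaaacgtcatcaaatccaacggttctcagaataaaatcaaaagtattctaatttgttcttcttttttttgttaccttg
In MGD2 the match begins 14 bases before the gene start, and SPX3 and SRG3 hold 2 matches each. Of the 22 phosphate genes, 7 held a match (31.8%), and all 7 were among the 19 lower genes. The letters occurred in 5.43% of all 32545 windows, in 10.7% of the 719 members at least 2-fold lower and in 6.38% of the 658 members at least 2-fold higher. Among members with 10 or more in all 4 libraries these shares were 10.9% of 570 and 6.93% of 462. A match is a description of these letters in this window, and binding by PHR1 was not measured.

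The sensing and uptake genes went the same way with few exceptions. SPX3, an SPX-domain protein, stood at 79.4 and 90.6 in scs1 scs2a, 262 and 278 in hag1, and 60.8 and 53.4 in wild type, a difference of -1.66 ± 0.19 (limma adjusted p = 0.000571). SPX1 and SPX2 were lower by 1.17 and 0.9 on the log2 scale. The phosphate transporter PHT1;4 stood at 784 and 925, 2416 and 2032, and 836 and 757, a difference of -1.38 ± 0.11 (limma adjusted p = 0.000142). Its relative PHT1;1 was the listed gene that was higher, at 2157 and 2037 against 1362 and 1037, with wild type at 1110 and 1307, a difference of 0.82 ± 0.12 (limma adjusted p = 0.00193). The 2 transporters thus differed in opposite directions between the same mutants. Among the phosphatases, the purple acid phosphatase PAP17 was lower by 1.13, PEPC1, a phosphatase of small phosphorylated compounds, by 1.33 and PS2, a pyrophosphatase, by 1.1. PHR1 itself stood at 949 and 1017 against 886 and 1015 and IPS1, a noncoding RNA that sequesters a phosphate-regulated microRNA, at 216 and 287 against 117 and 188, and neither was called. Without 1 library the count of lower genes was 17 to 19. The call of the phospholipase NPC4 ended without scs1 scs2a replicate 1 (limma adjusted p = 0.0553) or hag1 replicate 1 (0.0626), and that of the ribonuclease RNS1 without scs1 scs2a replicate 1 (0.207), hag1 replicate 1 (0.16) or hag1 replicate 2 (0.121).

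**Figure D3:**
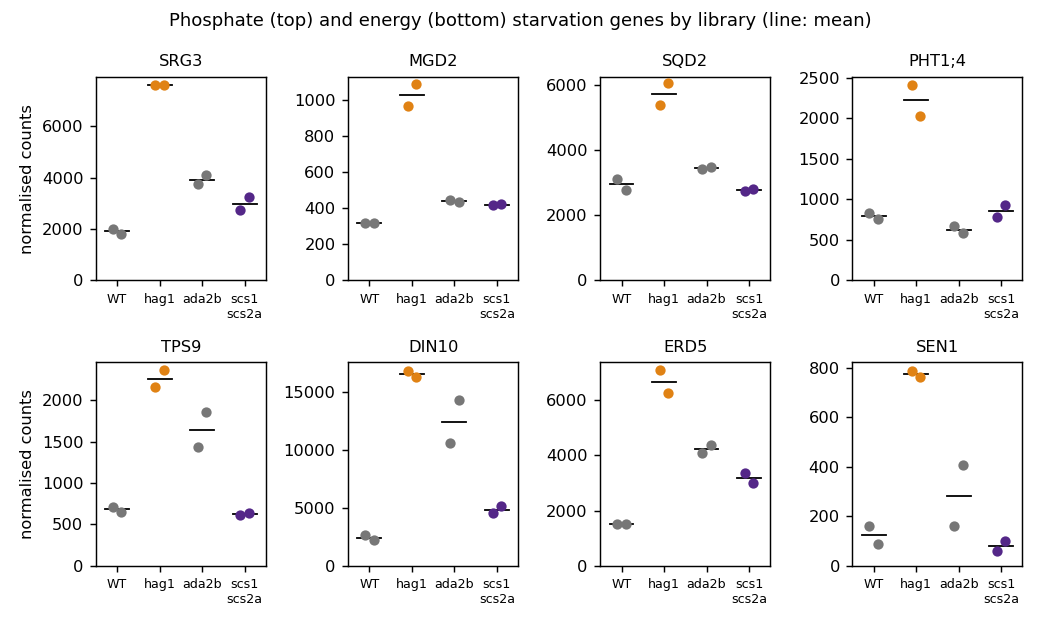
Normalised counts of 4 phosphate starvation genes (top row) and 4 energy starvation genes (bottom row) in every library, by genotype, with a line at each mean. In all 8 panels both hag1 libraries lie above both scs1 scs2a libraries, and the genes were chosen for the plot after their values were seen.

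Genes that carbon or energy shortage is known to induce were lower in scs1 scs2a as well. Of 22 listed genes, all members, 15 were lower, 1 was higher and 6 were not called, with a median difference of -0.87. The class II trehalose phosphate synthases, proteins related to the enzyme of the sugar signal trehalose 6-phosphate, were prominent. TPS9 stood at 620 and 634 in scs1 scs2a, 2158 and 2372 in hag1, and 715 and 656 in wild type, a difference of -1.85 ± 0.11 (limma adjusted p = 4.25e-05). TPS8, TPS10 and TPS11 were lower by 2.51, 1.09 and 2.34 on the log2 scale. For these 4 genes the double mutant was not called against wild type and hag1 stood above both. The ada2b libraries were high as well, at 1437 and 1859 for TPS9. DIN10, a raffinose synthase family protein induced in the dark, stood at 4567 and 5134, 16832 and 16336, and 2645 and 2208, a difference of -1.78 ± 0.14 (limma adjusted p = 0.000119). ERD5, the proline dehydrogenase of proline breakdown, stood at 3369 and 3013, 7082 and 6262, and 1501 and 1517. In these 2 genes scs1 scs2a lay above wild type and hag1 farther above. ASN1, an asparagine synthetase, was lower by 1.62, DIN2, a dark-induced beta-glucosidase, by 3.1, and AKINBETA1, a subunit of the energy-sensing kinase SnRK1, by 1.09. BAM5, a beta-amylase, stood at 319 and 446 against 5636 and 3557, a difference of -3.57 ± 0.29 (limma adjusted p = 0.000142), and SEN1, a dark- and senescence-induced gene, at 58.1 and 98.5 against 784 and 762. Among enzymes of branched-chain amino acid breakdown, MCCA was lower by 0.67 and DIN4 by 0.43, while MCCB, IVD and BCAT-2, at differences of -0.09, 0.07 and -0.18, were not called. The call of DIN4 ended without scs1 scs2a replicate 1 (limma adjusted p = 0.0763), scs1 scs2a replicate 2 (0.0966) or hag1 replicate 1 (0.112). The glutamate dehydrogenase gene GDH1 was the 1 gene called higher, by 0.3, and its call ended without any 1 of the 4 libraries of the 2 mutants, with limma adjusted p of 0.0915 without scs1 scs2a replicate 1, 0.16 without scs1 scs2a replicate 2, 0.0865 without hag1 replicate 1 and 0.155 without hag1 replicate 2.

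Beta-amylases differed among themselves. Of 6 members, which break starch down to maltose or are related to such enzymes, 3 were lower, 1 was higher and 2 were not called. BAM6 stood at 324 and 217 in scs1 scs2a against 38.8 and 64.8 in hag1, with wild type at 554 and 665, the opposite direction to BAM5. BAM1 stood at 1809 and 1594 against 2651 and 2820. The call of BAM4, at 515 and 491 against 572 and 607, was weak, since it ended with median-ratio scaling (limma adjusted p = 0.0502), with upper-quartile scaling (0.0752) and without any 1 library, at 0.0943 and 0.184 without scs1 scs2a replicates 1 and 2 and 0.0684 and 0.178 without hag1 replicates 1 and 2.

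Senescence genes followed in part. Of 11 members, 6 were lower, none was higher and 5 were not called, with a median of -0.56. NAC6, the transcription factor of leaf ageing also known as ORE1, stood at 150 and 151 in scs1 scs2a, 436 and 446 in hag1, and 142 and 122 in wild type, a difference of -1.55 ± 0.11 (limma adjusted p = 6.92e-05). CEP1, a cysteine protease, stood at 48.7 and 66.9, 326 and 314, and 13.2 and 19.1, a difference of -2.47 ± 0.23 (limma adjusted p = 0.000218). Scs1 scs2a was thus near wild type for NAC6 and between wild type and hag1 for CEP1. ACD1, an enzyme of chlorophyll breakdown, and SAG21 were each lower by 0.56 on the log2 scale. SAG12, a marker of advanced leaf senescence, was at 0 in all libraries of scs1 scs2a, hag1 and wild type and was not tested. Without 1 library, 4 or 5 genes were called lower.

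Iron deficiency genes ran the opposite way to the starvation lists. Of 17 members among 18 listed genes, 15 were higher in scs1 scs2a, none was lower and 2 were not called, with a median difference of 0.88 beside a background of 15.2% called higher. Roots short of iron raise a cascade in which basic helix-loop-helix factors activate the reductase and transporter that bring iron into the root, and nicotianamine, a chelator, moves it on. Among the regulators, FRU, the helix-loop-helix factor also known as FIT, stood at 288 and 268 in scs1 scs2a, 124 and 80.2 in hag1, and 220 and 193 in wild type, a difference of 1.47 ± 0.2 (limma adjusted p = 0.00133). Its partner bHLH39 stood at 41.9 and 73.7, 8.35 and 8.82, and 142 and 164. BHLH100, of the same subgroup, stood at 27.6 and 48.8, 6.29 and 8.83, and 250 and 358. Both scs1 scs2a libraries of FRU lay above both hag1 libraries, and wild type lay below scs1 scs2a. For bHLH39 and BHLH100 the order of the mutants followed from the rule for members, and wild type lay far above both. A further regulator, bHLH38, was at 36.2 and 55.4 against 2.16 and 10.8 and overlaps PIP5K4 on the opposite strand. BHLH101, also listed, was higher by 0.88 (limma adjusted p = 0.0184). Its call ended in the fit of only the 4 libraries of the mutants (limma adjusted p = 0.057). BHLH100 and bHLH39 were members through scs1 scs2a alone, and over the 13 list members with 10 or more in all 4 libraries 11 were higher and none lower, with a median of 0.67.

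Among the effectors, IRT1, the root iron transporter, stood at 1016 and 1123 in scs1 scs2a, 183 and 134 in hag1, and 210 and 615 in wild type, a difference of 2.76 ± 0.41 (limma adjusted p = 0.00198). FRO2, the root ferric reductase, stood at 382 and 449, 74.9 and 56.8, and 68.8 and 291. CYP82C4, a cytochrome P450 that makes an iron-mobilising coumarin, is not in the list and was named for the size of its difference. It stood at 90 and 95.3, 3.16 and 5.89, and 15.4 and 104. In these 3 genes the wild type libraries differed widely from each other, so the wild type level is poorly fixed, while the pairs of each mutant were close. CYP82C4 was a member through scs1 scs2a alone. The nicotianamine synthase NAS1 stood at 3019 and 3236 against 1805 and 1702, with wild type at 3355 and 2986, a difference of 0.83 ± 0.08 (limma adjusted p = 0.00026). ORG1 was higher by 0.93 and OPT3, a transporter of iron in the phloem, by 0.42. BTS, a ubiquitin ligase that restrains the cascade, stood at 2559 and 2188 against 1925 and 2222 and was not called. Between 9 and 12 iron deficiency genes were called higher without 1 library, with 9 without scs1 scs2a replicate 2, and the call of FRO2 ended without that library (limma adjusted p = 0.0593) or hag1 replicate 2 (0.066). Of 6 iron storage genes, 1 was called, the ferritin FER1, which was lower at 3239 and 3215 against 5745 and 5072, a difference of -0.74 ± 0.06 (limma adjusted p = 0.000142), with wild type at 1585 and 1584. The G-box letters CACGTG, searched on both strands, lay in 4 of 18 iron deficiency windows (22.2%), 3 of them among the 15 higher genes, and in 5.9% of all windows.

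**Figure D4:**
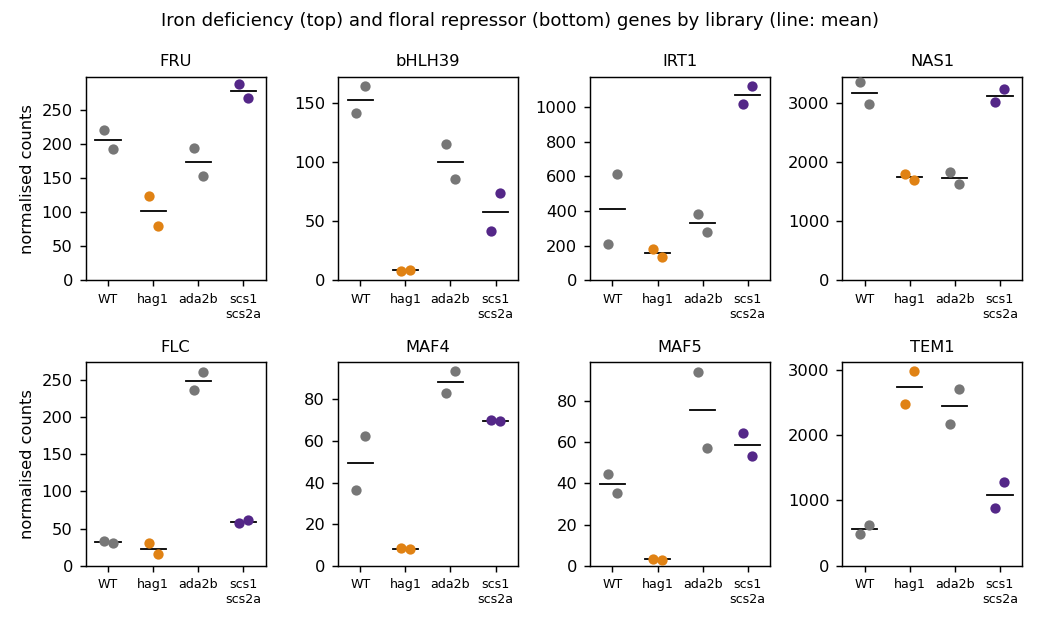
Normalised counts of 4 iron deficiency genes (top row) and 4 floral repressors (bottom row) in every library, by genotype, with a line at each mean. FLC, MAF4, MAF5 and the 4 iron genes are higher in both scs1 scs2a libraries than in both hag1 libraries, and TEM1 is lower. For bHLH39, MAF4 and MAF5, members through scs1 scs2a alone, this order followed from the rule. The genes were chosen for the plot after their values were seen.

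Floral repressors moved in both directions. Of 12 members, 5 were higher, 3 lower and 4 not called, with a median of -0.1, beside backgrounds of 15.2% higher and 14.9% lower. FLC and its relatives MAF1 to MAF5 are MADS-box factors that hold back flowering, in part until winter cold has silenced FLC. MAF5 stood at 64.3 and 53.2 in scs1 scs2a, 3.13 and 2.94 in hag1, and 44.4 and 35.3 in wild type. MAF4, its neighbour on the chromosome, stood at 69.9 and 69.5, 8.34 and 7.84, and 36.3 and 62.6. Both genes were under 10 normalised counts in hag1, so that they were members through scs1 scs2a alone, and above both wild type libraries in scs1 scs2a. Without such members the list held 3 higher and 3 lower of 10. FLC stood at 57.4 and 61, 30.1 and 15.6, and 32.6 and 29.9, a difference of 1.4 ± 0.28 (limma adjusted p = 0.0066). The other MAF genes did not share this pattern, with AGL31, also known as MAF2, lower by 0.36 and MAF1 and MAF3 not called at -0.03 and -0.18. TEM1, an AP2/B3 repressor of flowering, stood at 888 and 1278, 2479 and 2983, and 479 and 630, a difference of -1.35 ± 0.2 (limma adjusted p = 0.00166). Of the AP2-like repressors, SNZ was higher, at 110 and 80.7 against 35.4 and 34.3 with wild type at 310 and 411, while SMZ was lower, at 162 and 146 against 263 and 333. Among 10 members of the floral promoter list, 2 were higher, SPL5 and AGL42, and none was lower. AGL42 stood at 36.3 and 42 against 12.5 and 12.7, a difference of 1.56 ± 0.29 (limma adjusted p = 0.00482). FT, the mobile flowering signal, stood at 93.3 and 46.2 against 32.5 and 49.1 and was not called. The call of SPL5 rested on levels of 23 and 20 against 8.36 and 9.81 and ended without scs1 scs2a replicate 1 (limma adjusted p = 0.0784) or hag1 replicate 1 (0.0585). The count of floral promoters called higher was 1 in each of those fits and 4 without scs1 scs2a replicate 2. SPL5 was a member through scs1 scs2a alone.

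Genes for aliphatic glucosinolates, the sulphur-rich defence compounds made from methionine, were higher. Of 21 members, 13 were higher, none was lower and 8 were not called, with a median of 0.44. The regulator MYB29 stood at 488 and 412 in scs1 scs2a, 93.1 and 126 in hag1, and 608 and 654 in wild type, a difference of 2.04 ± 0.14 (limma adjusted p = 7.93e-05). The main regulator MYB28 differed less, at 1746 and 1639 against 1254 and 1372, by 0.37 ± 0.07 (limma adjusted p = 0.00555). Chain elongation enzymes included MAM1, at 6615 and 5753 against 3562 and 3778, and IPMI2, at 2834 and 2695 against 1849 and 1946. Core synthesis enzymes included CYP79F1, higher by 0.73, and CYP83A1, at 7779 and 7440 against 4469 and 4954 with wild type at 7505 and 7743. For MYB29 and MAM1 wild type lay above both mutants, and for CYP83A1 and IPMI2 at the scs1 scs2a level. CYP79F2, at a difference of 0.13, was not called, nor were the side-chain oxygenases FMO GS-OX1, FMO GS-OX4 and FMO GS-OX5. FMO GS-OX2, at 152 and 97.7 against 16.9 and 43.3, was called higher, by 2.12, but not without scs1 scs2a replicate 1 (limma adjusted p = 0.0789) or hag1 replicate 1 (0.0589). Genes of the indolic branch showed no common direction, with 2 of 10 higher, 1 lower and a median of 0.03. UGT74B1, the glucosyltransferase that both branches use, stood at 2492 and 2418 against 1620 and 1687, while MYB51, a regulator of the indolic branch, stood at 218 and 290 against 502 and 538. The call of MYB51 ended without scs1 scs2a replicate 1 (limma adjusted p = 0.0575) or hag1 replicate 2 (0.0508), and in each of those fits 1 indolic gene was called higher.

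**Figure D5:**
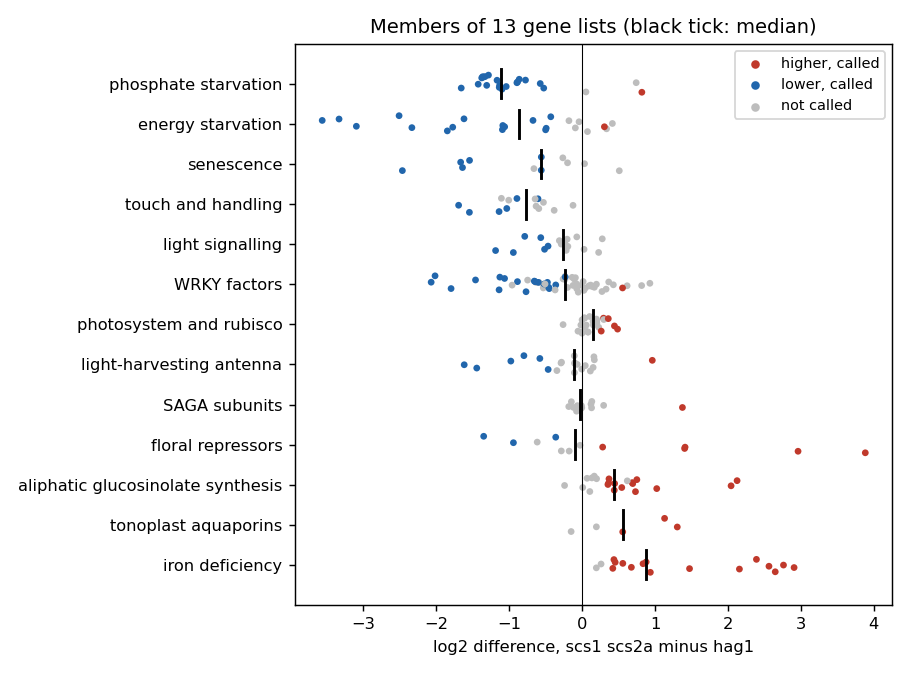
Each row is a gene list and each point a member of it, placed by its log2 difference, scs1 scs2a minus hag1, and coloured by call, with a black tick at the median. Medians run from -1.12 for phosphate starvation to 0.88 for iron deficiency, and the 13 lists were chosen for the plot after their values were seen.

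Water and nitrate transporters held calls in both directions. Of 5 tonoplast aquaporin members, 3 were higher and 2 not called, with a median of 0.56. TIP2;2 stood at 2016 and 1635 in scs1 scs2a, 759 and 906 in hag1, and 3229 and 2962 in wild type, a difference of 1.13 ± 0.11 (limma adjusted p = 0.000333). GAMMA-TIP stood at 8855 and 8478, 6032 and 5758, and 14373 and 14001. In both, scs1 scs2a lay between hag1 and wild type. Of 12 plasma membrane aquaporins, 5 were higher and 3 lower, with PIP1A at 4080 and 4005 against 2308 and 2159 and PIP2;5 at 205 and 169 against 323 and 294. The counts were 3 higher and 1 lower without scs1 scs2a replicate 2, 3 higher without hag1 replicate 1 and 1 lower without hag1 replicate 2. Among 13 nitrate genes 3 were higher and 3 lower, with a median of 0.06, beside backgrounds of 15.2% called higher and 14.9% called lower. The xylem-loading transporter NRT1.5, which overlaps PKp3 on the opposite strand, stood at 1637 and 1218 against 464 and 473, a difference of 1.59 ± 0.19 (limma adjusted p = 0.000642). NRT1.8, which takes nitrate back out of the xylem, went the other way, at 41.8 and 86.2 against 473 and 331, a difference of -2.7 ± 0.32 (limma adjusted p = 0.000684). The high-affinity uptake transporter NRT2:1 stood at 104 and 76.9 against 280 and 313, with wild type at 234 and 327, and the nitrite reductase NIR1 at 14167 and 14911 against 9737 and 9352.

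Photosystem and rubisco genes differed little between the mutants, while some antenna genes differed more. Of 27 photosystem and rubisco members, 5 were higher, none was lower and 22 were not called, with a median of 0.15. Their summed level was 960342 and 870577 normalised counts in scs1 scs2a, 774950 and 821928 in hag1, and 1270812 and 1206860 in wild type. The rubisco small subunit genes RBCS1B, RBCS2B and RBCS3B were higher by 0.49, 0.36 and 0.44, but they are near-identical copies among which reads may have been split, so single values are uncertain. Only 1 gene of the list was called without scs1 scs2a replicate 1 or without hag1 replicate 1, where RBCS2B (limma adjusted p = 0.126 in both fits) and RBCS3B (0.0718 and 0.0735) lost their calls. Of 21 light-harvesting antenna members, 1 was higher and 6 lower, with a median of -0.11. The antenna genes LHCB2.1, LHCB2.2 and LHCB2.3 were lower by 0.98, 1.45 and 1.62 on the log2 scale, and they too are near-identical. Without scs1 scs2a replicate 2 or hag1 replicate 2, 3 antenna genes were called lower, and in the first of these fits 3 were higher. In light signalling, 6 of 16 members were lower, none was higher, and the median was -0.26. They comprised photoreceptors and the factors they act on. The far-red photoreceptor PHYA stood at 1713 and 1732 in scs1 scs2a, 2519 and 2410 in hag1, and 1809 and 1729 in wild type, a difference of -0.52 ± 0.05 (limma adjusted p = 0.000389). PIF3, a growth-promoting factor that phytochrome destroys, stood at 404 and 482, 832 and 869, and 441 and 452, a difference of -0.94 ± 0.1 (limma adjusted p = 0.000487). PIL5, PIL6 and the blue light receptors CRY1 and CRY2 were lower by 0.79, 1.19, 0.57 and 0.47. The same number of 6 was called in each fit without 1 library. The red light photoreceptor PHYB stood at 2081 and 2014 against 2045 and 1978 and was not called.

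Touch-induced and WRKY genes leaned lower. None of 14 touch and handling members was higher, 6 were lower and 8 were not called, with a median of -0.77. WRKY18, a defence regulator, stood at 237 and 297 in scs1 scs2a, 593 and 578 in hag1, and 116 and 120 in wild type, a difference of -1.14 ± 0.11 (limma adjusted p = 0.000292). TCH3, a calmodulin-like protein, stood at 1463 and 2015, 3089 and 3301, and 564 and 633, and overlaps AT2G41105 on the opposite strand, at means of 631 and 1210. Some touch genes also differed between libraries of the same mutant. RHL41, a zinc finger factor, stood at 85.1 and 107 against 196 and 401, and SZF1 at 787 and 1196 against 1559 and 2536. For both genes replicate 2 was also the higher one in wild type and ada2b. RHL41 stood there at 37.2 and 47.9 and at 109 and 223, and SZF1 at 446 and 482 and at 1936 and 3449. WRKY18 did not share this order in hag1. The calls of RHL41 (limma adjusted p = 0.112) and SZF1 (0.21) ended without scs1 scs2a replicate 1, as they did without hag1 replicate 2 (0.125 and 0.217), and that of RHL41 also ended without scs1 scs2a replicate 2 (0.0611). The number of touch genes called lower was 2 without scs1 scs2a replicate 1, 3 without scs1 scs2a replicate 2, 7 without hag1 replicate 1 and 2 without hag1 replicate 2. With the replicate number as a block it was 11. Of 54 WRKY members, 18 were lower and 1 was higher, with a median of -0.24. WRKY26 stood at 138 and 169 against 415 and 429, a difference of -1.46 ± 0.13 (limma adjusted p = 0.000205). WRKY70 and WRKY54, a pair of factors of the salicylic acid response, stood at 371 and 401 against 1273 and 2076 and at 117 and 119 against 361 and 641. The count of lower WRKY genes was 11 without scs1 scs2a replicate 1 or hag1 replicate 1. The call of the 1 higher gene, WRKY27, ended without any 1 library (limma adjusted p = 0.0757 and 0.152 without scs1 scs2a replicates 1 and 2, 0.0544 and 0.141 without hag1 replicates 1 and 2).

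Hormone and defence lists divided or held few calls. Heat shock and flavonoid genes were called lower more often than higher, in counts that depended on single libraries. The background was 15.2% of genes called higher and 14.9% called lower. In the salicylic acid and defence list, 3 of 19 members were lower and 1 was higher, with a median of -0.17. The higher gene was CBP60G, a calmodulin-binding regulator of salicylic acid synthesis, and its call ended without any 1 library (limma adjusted p = 0.0763 and 0.117 without scs1 scs2a replicates 1 and 2, 0.127 and 0.0513 without hag1 replicates 1 and 2). SARD1, a regulator of salicylic acid synthesis, stood at 181 and 182 in scs1 scs2a against 332 and 396 in hag1, a difference of -0.99 ± 0.12 (limma adjusted p = 0.000625). In the jasmonate and wounding list, 4 of 22 members were higher and 4 lower. Over its 21 members with 10 or more in all 4 libraries, 3 were higher and 4 lower. AOC1, an enzyme of jasmonate synthesis, stood at 811 and 749 against 1768 and 2178, while LOX3, an earlier enzyme of the same pathway, stood at 349 and 267 against 142 and 126. HPL1, a gene annotated as a hydroperoxide lyase, stood at 139 and 76.6 against 19.9 and 27.5, with wild type at 416 and 483. Of the 4 lower jasmonate genes, 1 was called without hag1 replicate 2. In the abscisic acid list, 5 of 17 members were higher and 2 lower. HB-7, a homeodomain factor, stood at 426 and 370 against 729 and 706, and RD26, a NAC factor, at 265 and 221 against 428 and 430. Over the 15 members with 10 or more in all 4 libraries, 3 were higher. The higher calls of this list were unstable, since none was left without scs1 scs2a replicate 1, 2 were left without scs1 scs2a replicate 2 and 1 without hag1 replicate 1. In the heat shock list, 5 of 13 members were lower and none was higher, with a median of -0.36. HSFB2A, a heat shock factor, stood at 120 and 107 against 210 and 231, and its call ended without any 1 library (limma adjusted p = 0.059 and 0.0898 without scs1 scs2a replicates 1 and 2, 0.0594 and 0.0905 without hag1 replicates 1 and 2). No heat shock gene was called lower without scs1 scs2a replicate 2 or without hag1 replicate 1, 1 without scs1 scs2a replicate 1 and 3 without hag1 replicate 2. For the flavonoid list, 6 of 18 members were lower and 2 higher, with a median of -0.27. The lower genes included late enzymes of anthocyanin synthesis, DFR at 307 and 196 against 584 and 904 and LDOX at 263 and 229 against 575 and 785. The count of lower flavonoid genes was 2 without scs1 scs2a replicate 1 and 3 without scs1 scs2a replicate 2 or hag1 replicate 2, and that of higher ones was 0 in all 3 fits and 1 without hag1 replicate 1. The call of DFR ended without scs1 scs2a replicate 2 (limma adjusted p = 0.122) or hag1 replicate 2 (0.127), and that of LDOX without either of them (0.0741 and 0.0889) or without scs1 scs2a replicate 1 (0.0539).

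Clock and cold genes showed single large differences inside divided lists. The background was 15.2% of genes called higher and 14.9% called lower. Of 20 clock members, 2 were higher, 4 lower and 14 not called. PRR3, an evening-phase pseudo-response regulator, stood at 647 and 657 in scs1 scs2a, 235 and 248 in hag1, and 1053 and 1008 in wild type, a difference of 1.43 ± 0.06 (limma adjusted p = 1.71e-05). FKF1, a blue light receptor of the day length pathway, was higher by 0.74. The morning factors RVE1 and LHY stood at 149 and 120 against 390 and 394 and at 157 and 145 against 264 and 240. RVE1 differed by -1.55 ± 0.17 (limma adjusted p = 0.0005) and overlaps AT5G17305 on the opposite strand. CCA1, the partner of LHY, stood at 30.7 and 29.5 against 43.9 and 57.9 and was not called. The evening element AAAATATCT, searched on both strands, was found in 6 of 21 clock windows (28.6%), against 2.23% of all windows, and in 1 of the 2 higher and 1 of the 4 lower genes. Of 12 cold response members, 4 were higher and 4 lower. LTI78, a dehydration- and cold-induced gene also known as RD29A, stood at 1830 and 1815 against 772 and 1054 with wild type at 3197 and 3041, a difference of 1.01 ± 0.13 (limma adjusted p = 0.000939). COR15A, a chloroplast stromal protein of cold tolerance, stood at 654 and 443 against 742 and 1552, in the lower direction, while its near copy COR15B stood at 693 and 411 against 226 and 254, so the split of reads between them is uncertain. The number of cold genes called lower was 1 without scs1 scs2a replicate 1 or hag1 replicate 2 and 2 without scs1 scs2a replicate 2, and the call of COR15A ended in each of those fits (limma adjusted p = 0.058, 0.188 and 0.222, in the order named). The letters CCGAC, searched on both strands, lay in 4 of 13 cold windows (30.8%) and in 11.7% of all windows.

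Cell wall and kinase families held calls in both directions, beside a background of 15.2% of genes called higher and 14.9% called lower. Of 25 XTH members, enzymes that cut and join xyloglucan, 8 were higher and 7 lower. Over the 23 with 10 or more in all 4 libraries, 8 were higher and 6 lower. XTH17 stood at 178 and 243 in scs1 scs2a against 66.5 and 43 in hag1, and XTH9 at 4220 and 4188 against 6519 and 6814. Without either scs1 scs2a replicate or without hag1 replicate 2, 3 XTH genes were called higher, and without hag1 replicate 1, 4 were called lower. Of 23 expansins, 3 were higher and 6 lower, with EXLB1 at 103 and 95.2 against 23 and 23.5 and wild type at 441 and 464. Cysteine-rich receptor-like kinases had 10 of 29 members higher and 4 lower, with a median of 0.22. Genes with a lectin product name, AT1G61360, an S-locus lectin kinase, among them, had 17 of 53 higher and 5 lower, a median of 0.21. These 2 counts of higher genes fell to 4 and 5 without scs1 scs2a replicate 2, and the kinase count was 6 without scs1 scs2a replicate 1, while the lectin count was 9 without hag1 replicate 2. The count of lower lectin genes was 3 without scs1 scs2a replicate 1, hag1 replicate 1 or hag1 replicate 2. With 10 or more in all 4 libraries, 8 of 26 kinases were higher and 3 lower, and 16 of 49 lectin genes higher and 4 lower. Among 34 glutathione transferases, 8 were higher and 6 lower. GSTF2 stood at 8382 and 9413 against 21358 and 16529, and GSTU20 at 10705 and 10582 against 7323 and 7596. Genes with a ribosomal protein product name had 58 of 195 members lower and 10 higher, a median of -0.16. AT5G62300, for example, differed by -0.3 ± 0.05 (limma adjusted p = 0.00287). A difference of at least 2-fold was called for 1 gene each way, and the higher one, AT3G12915, stood at 230 and 184 against 80.1 and 57.8. Its full product name, Ribosomal protein S5/Elongation factor G/III/V family protein, also covers elongation factors. Organellar proteins are not separated in that list, many of its genes have close copies, and the lower count was 37 with upper-quartile scaling, 14 without scs1 scs2a replicate 1, 34 without scs1 scs2a replicate 2, 17 without hag1 replicate 1 and 28 without hag1 replicate 2. The higher count was 18 with upper-quartile scaling, 6 without scs1 scs2a replicate 1 and 5 without scs1 scs2a replicate 2. Of 9 wax members 4 were higher and 1 lower, of 17 Aux/IAA members 4 were higher and 1 lower, and of 13 SAUR members 2 were higher. Of 11 trichome and root hair fate members 2 were higher, and of 10 genes for ethylene precursor enzymes 2 were higher and 1 lower. Histone deacetylases had 1 of 12 higher and 2 lower, galactinol synthases 1 of 3 lower and meristem genes 1 of 3 higher. Most of these small counts depended on single libraries. With 10 or more asked of all 4 libraries, 3 wax genes, 1 SAUR gene and 1 ethylene precursor gene were higher. Wax genes called higher were 2 without either scs1 scs2a replicate or hag1 replicate 1, and Aux/IAA genes called higher were 2 without scs1 scs2a replicate 1 or hag1 replicate 1. SAUR genes called higher were 1 without hag1 replicate 1 and 0 without any of the other 3 libraries, and trichome genes 1 without any library but hag1 replicate 2. The lower histone deacetylases and the galactinol synthase lost their calls without any 1 library, the meristem gene without any library but scs1 scs2a replicate 2, and the lower Aux/IAA gene without scs1 scs2a replicate 2 or hag1 replicate 2. Ethylene precursor genes called higher were 1 without scs1 scs2a replicate 1 or hag1 replicate 2 and 0 without the other libraries, and the lower one was lost without scs1 scs2a replicate 1 or hag1 replicate 1.

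Marker genes of organs and of dividing cells held some calls, beside a background of 15.2% of genes called higher and 14.9% called lower. In whole seedlings, fewer cells of a type and less RNA per cell cannot be told apart. The summed level of 15 root markers was 61382 and 61305 normalised counts in scs1 scs2a, 89260 and 68967 in hag1, and 48888 and 47405 in wild type, most of it from PYK10, a beta-glucosidase of root endoplasmic reticulum bodies. Of 14 root marker members 3 were higher and 2 lower, with a median of 0.3. The root hair genes PRP3 and LRX1 stood at 1173 and 1273 against 733 and 492 and at 629 and 744 against 432 and 271. PYK10 was lower, at 55109 and 54441 against 82448 and 63579, so that root markers did not go in 1 direction. The call of LRX1 ended without scs1 scs2a replicate 2 (limma adjusted p = 0.0613), a fit with 1 root marker higher, and that of PYK10 without scs1 scs2a replicate 1 (0.116), scs1 scs2a replicate 2 (0.123) or hag1 replicate 1 (0.151). Of 4 flower marker members 2 were lower, SEP3 at 144 and 179 against 357 and 229 and AP3 at 5.76 and 3.78 against 35.3 and 16.6, and the summed flower markers were 166 and 212 in scs1 scs2a and 418 and 277 in hag1. Both calls ended without scs1 scs2a replicate 1 (limma adjusted p = 0.158 for SEP3 and 0.0586 for AP3), scs1 scs2a replicate 2 (0.058 and 0.103) or hag1 replicate 1 (0.162 and 0.118), and AP3 was a member through hag1 alone. At most 1 of 11 seed markers reached 10 in any library. Of 12 cell division members, 5 were lower and none higher, with a median of -0.25, among them the mitotic kinase CDKB2;1 at 332 and 303 against 421 and 449. The lower division genes called were 2 without hag1 replicate 2 and 3 without either scs1 scs2a replicate. Root, flower and division markers held calls beside the iron, phosphate and nitrate genes described above, many of which are active in roots. The part of these markers in those results was not tested.

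Members next to each other on a chromosome were also examined, a description added after values were seen. Of the 658 members at least 2-fold higher, 101 (15.3%) had a next member, not overlapping them, that was also at least 2-fold higher, while 5.36% of all members had such a neighbour. Of the 719 at least 2-fold lower, 78 (10.8%) had a lower neighbour, against 5.76% of all members. Over members with 10 or more in all 4 libraries, these numbers were 56 of 462 (12.1%, against 3.94%) and 58 of 570 (10.2%, against 4.81%). There were 3 runs of 3 higher genes and 2 runs of 3 lower genes. One run held CYP705A1, PEN1 and CYP705A4, genes of a triterpene cluster, in which PEN1, an arabidiol synthase, stood at 104 and 87.5 in scs1 scs2a against 53.1 and 39.2 in hag1. A lower run held AZI1, EARLI1 and AT4G12490, related lipid transfer-type proteins, with EARLI1 at 2788 and 3554 against 11306 and 7254. The other lower run was GPT2, a plastid glucose phosphate translocator, with the beta-glucosidases BGLU45 and BGLU46, and the other higher runs were MYB74, ENT6 and FUR1 and the kinase genes AT1G51860, AT1G51870 and RHS6, of which AT1G51870 and RHS6 were members through scs1 scs2a alone. Neighbours in these runs are in part related copies, among which reads may be split. When overlapping genes were counted as neighbours too, the shares were 22.6% and 18.1%, and 19 runs were found.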

How the data were processed

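Expression was measured by RNA sequencing of 8 libraries, 2 for each of 4 genotypes, with the genotype of each taken from its title. The deposited table holds 1 signal per gene and library, a normalised count that the authors made and that is not a whole number. HISAT2, edgeR and the TAIR10 build are named, without versions or roles, per the submitters' processing notes, and no source used here gives the normalisation formula, the gene counter, the annotation or whether strand was used. The test was limma (version 3.58.1, under R 4.3.3) on log2(value + 1), with a trend on mean level and genotype as the only term over all 8 libraries (4 residual and 4.42 prior degrees of freedom). Testing took in the 25459 genes that reached 1 in 2 or more of the 8 libraries. P-values were two-sided and were adjusted by Benjamini and Hochberg's method over all these genes, with a threshold of 0.05. The fold scale understates differences of low genes. An exact permutation test of 2 against 2 libraries cannot give a two-sided p under 0.333, so no such test was made. Whole reads were not taken as recovered, so no count model was run and no counting interval is given. Totals were 20570967 to 22344725 per library after the authors' normalisation, and the depth in reads is unknown.

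All 32548 identifiers matched RefSeq TAIR10.1 by locus tag, which gave symbols for 10804 genes and the promoter windows of 250 bases. The 44 gene lists (30 listed by name, with 15 of 468 entries dropped because RefSeq does not give that name, and 14 families by product name) are described by counts and medians with no test of a list. Named genes are HAG1, the 12 largest called differences each way among members with a symbol and libraries that do not overlap, the 5 smallest adjusted p each way, and up to 4 called genes by p of each list with at least 3 called, 162 in all, and other list genes are given where a list is described. Of the 162, 34 overlap another annotated gene. Members, lists and rules were chosen with earlier results of these data known. Alternatives were 2 other scalings, 2 other filters, pseudocounts of 0.1 and 5, the 4 libraries of the mutants alone, a replicate block and each of these 4 libraries left out in turn, where the lone library of a genotype is assumed to vary like the others.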

Additional observations from a re-analysis of the deposited data

How the results depend on the processing

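Across the 12 alternatives no called gene named in the text changed direction, and HAG1 kept its call, at 1.35 to 1.41. Of the 161 other genes named by rule, 118 kept their call under every alternative. Fitting only the 4 libraries of the 2 mutants, with 2 residual degrees of freedom, gave 1916 members higher, 2170 lower, 8 iron deficiency genes higher and 2 touch genes lower. Leaving out 1 library gave 2042 to 2766 members higher and 2158 to 2464 lower, 9 to 12 iron deficiency genes higher, 2 to 7 touch genes lower and 11 to 16 WRKY genes lower. Of the 7374 calls, 55.3 to 64.9% were kept without 1 library, and fewer libraries give fewer degrees of freedom. Upper-quartile scaling moved the median of the members from 0.004 to 0.039 and the share of higher calls from 50.6 to 57.7%. Numbers of replicates are shared by the labels between genotypes. Over genes with a mean of 10 or more, deviations of same-numbered scs1 scs2a and hag1 libraries were not alike (correlation -0.077). The numbers were therefore not taken to pair the samples, although RHL41 and SZF1 stood higher in replicate 2 of every genotype. With a replicate block, 3466 members were higher, 3421 lower and 11 touch genes lower. Reads per library are unknown, so no limit from depth is given, and with 2 libraries per genotype the spread rests on few degrees of freedom. The median-ratio scaling, both filters and both pseudocounts kept every count of members and of the 8 lists followed within 1.5 times. Counting only members with 10 or more in all 4 libraries was an alternative chosen after seeing the data. It moved no count of all members, of 2-fold members or of those 8 lists by more than 1.5 times. Some other counts moved more. Members at 4-fold fell from 120 to 44 higher and from 152 to 73 lower, and higher members with a higher neighbour from 101 to 56. Floral repressors and abscisic acid genes called higher each fell from 5 to 3.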
